A study of Drosophila melanogaster with 4 samples.

Results

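The pericentric transition of chromosome arm 3L was examined over the proximal 2 Mb of the release 5 sequence of that arm, from 22543558 to 24543557, where the arm sequence ends towards the centromere. The stretch was chosen by position and divided into 400 consecutive tiles of 5 kb, out of 27949 such tiles on all sequences except Uextra, a collection of leftover scaffolds. The signal was H3K9me2, histone H3 dimethylated at lysine 9, mapped by ChIP-seq in whole Drosophila melanogaster embryos. All 4 libraries came from wild-type Oregon-R embryos (Oregon-R-modENCODE) aged 14 to 16 h, and they comprised 2 H3K9me2 ChIP replicates and their 2 inputs. There was no other genotype, treatment or age, the embryos were a mixture of all cell types, and the antibody is described as a new lot. Whether the replicates came from separate embryo collections is not stated, so an SD over them may be technical. The data were lists of enriched clusters, 3579 in replicate 1, 3238 in replicate 2 and 4277 in the list for the replicate set, here the pooled list. The lists hold no read counts, so the depth behind each cluster is unknown.

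Pericentric heterochromatin is the compact, repeat-rich chromatin beside the centromere. In Drosophila, H3K9 is methylated there by Su(var)3-9 and related enzymes, and the methylated tail is bound by HP1a, the protein encoded by Su(var)205. Genes moved next to this chromatin can be silenced in some cells and not in others, the phenomenon known as position effect variegation, so the place where the mark begins on each arm is of long-standing interest. The mark is placed here on the assembled sequence only: the more proximal 3LHet is assembled apart from the arm, and the satellite DNA of the centromere is not represented in the tiles.

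Nearly all of the marked sequence lay in one block at the proximal end. A step between 2 levels, fitted to the tile shares by least squares, placed the start of the block at 23008558 in all 3 lists. The block was thus 1.535 Mb long and held 307 tiles, and the flank distal of it was 0.465 Mb long and held 93. Of the block, clusters covered 84.3% in replicate 1 and 81.6% in replicate 2, which gave 82.9% ± 1.95 (SD, n = 2). Of the flank they covered 5.44% and 4.19%, which gave 4.82% ± 0.885 (SD, n = 2). The difference between block and flank was many times the spread between the replicates. The step was fitted to the same shares, so no test of it was made. The pooled list covered 88.7% of the block and 6.93% of the flank. The flank itself was above the 22.5 Mb of the arm beyond it, which were covered over 2.89% in replicate 1 and 2.04% in replicate 2.

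**Figure D1:**
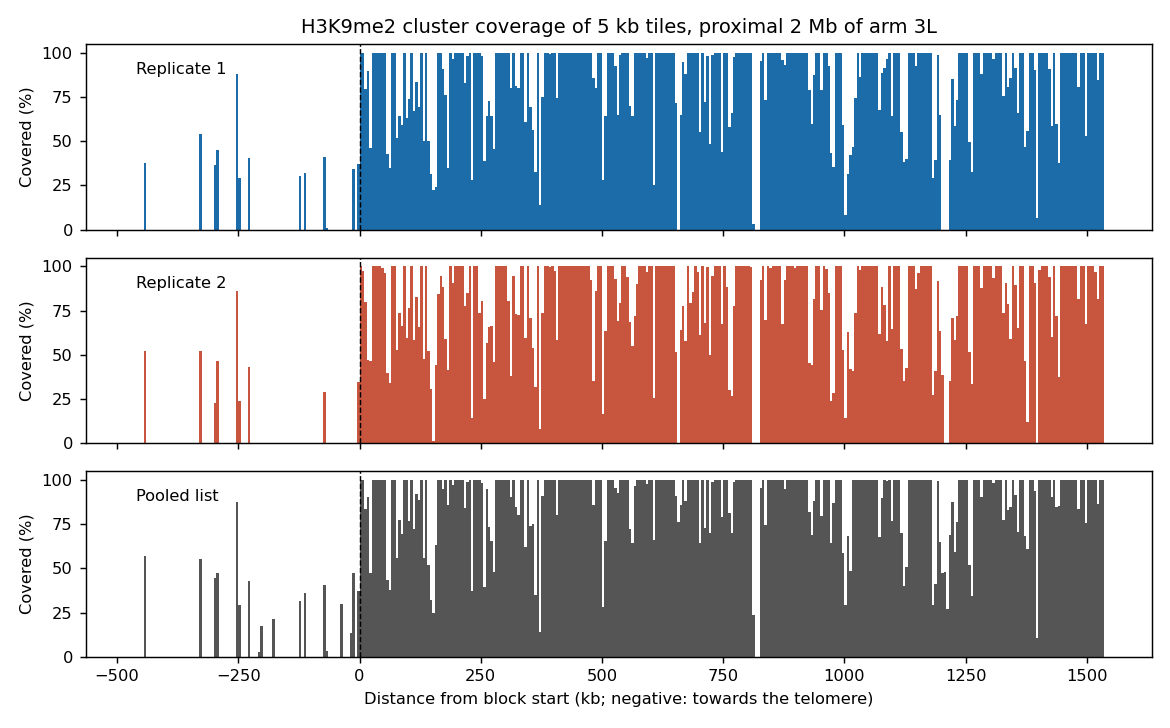
Covered share of each 5 kb tile (percent) against distance from the block start (kb), for replicate 1, replicate 2 and the pooled list; the dashed line is the block start at 23008558. Tiles left of the line are mostly at 0%, and tiles right of it are mostly above 50%, with narrow gaps recurring in the 3 panels.

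Single tiles were mostly either empty or marked. A tile covered over at least 50% was called marked. Of the 400 tiles, 268 were marked in replicate 1, against 16.2% of all tiles of the genome sequences. In replicate 2, 266 were marked, against 15.1% of all tiles, and in the pooled list 286 were, against 18.0%. In the block alone, 266 of the 307 tiles were marked in replicate 1 and 263 in replicate 2. In the flank, 2 of the 93 tiles were marked in replicate 1 and 3 in replicate 2.

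Tiles without any covered base belonged almost wholly to the flank, and fully covered tiles wholly to the block. Empty tiles numbered 80 in the flank and 6 in the block in replicate 1, a list in which 74.8% of all tiles were empty. In replicate 2 they numbered 84 and 7, with 77.4% of all tiles empty. Fully covered tiles numbered 179 in replicate 1 and 154 in replicate 2, all of them in the block. The corresponding shares of all tiles were 8.44% and 7.58%. The other 122 block tiles in replicate 1 and 146 in replicate 2 were covered in part.

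The border was sharp at the scale of the tiles. The last tile before the block, from 23003558 to 23008557, had a covered share of 37.2% in replicate 1, 34.6% in replicate 2 and 37.1% by pooled clusters. The first tile of the block was covered over 100% in the 3 lists. The partial cover of the tile before it came from the outermost cluster of the block, which began inside that tile. This cluster began at 23006698 in replicate 1 and at 23006827 in replicate 2, and its pooled counterpart at 23006702. The replicates therefore placed the edge 129 bp apart, and the tile grid put the block start 1.86 kb proximal of the edge in replicate 1 and 1.73 kb in replicate 2.

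Over longer distances the change was equally steep. The 10 tiles distal of the block start, 50 kb in all, had 7.14% and 3.46% cover in replicates 1 and 2, on average 5.30% ± 2.60 (SD, n = 2). The 10 tiles proximal of it had 91.6% and 87.0%, on average 89.3% ± 3.24 (SD, n = 2). Of the 10 distal tiles, 8 were empty in replicate 1 and 9 in replicate 2, and none of the 10 proximal tiles was empty in either replicate. A border width was taken as the distance over which a running mean of 10 tiles climbed from 10% to 90% of the step. It was 45.0 kb in both replicates and in the pooled list. A perfect step would give 40.0 kb by this measure, so the width was set mainly by the running mean itself.

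**Figure D2:**
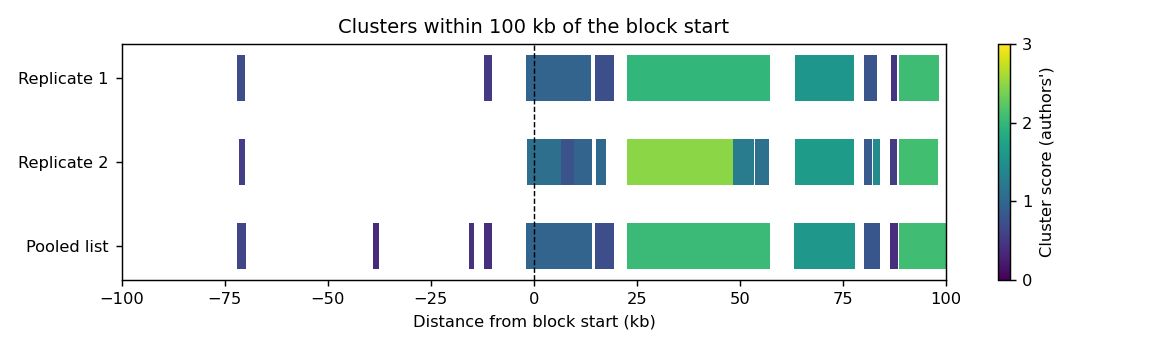
Clusters within 100 kb of the block start in each list, as bars placed by distance from the block start (kb) and coloured by the authors' cluster score. The outermost bar of the block starts just left of the dashed line in each list, bars with a score near 1 come first, and the first bar with a score near 2 or above begins 22.7 kb into the block in both replicates.

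The sequence immediately outside the edge carried almost no clusters. In replicate 2 nothing was called over the 68.4 kb from 22938440 to 23006826. In replicate 1, apart from the edge of the block itself, a flank cluster ended just inside that stretch, at 22938614, and 1 cluster lay wholly within it, from 22996581 to 22998288, with a score of 0.514, at percentile 9.22 of its list. The pooled list likewise had a cluster that ended just inside it, at 22938709, a counterpart of the replicate 1 cluster, and 2 smaller clusters that neither replicate list contained. Scores are the authors' own values, their scale is not given in the sources used here, and they are compared only within a list.

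In the replicate lists the outermost clusters of the block had low scores, and high scores began only further in. In replicate 1 the cluster at the edge was 15.8 kb long and scored 0.955, at percentile 40.8 of its list, and the next one scored 0.720, at percentile 28.6. In replicate 2 the same sequence was divided into 4 clusters with scores of 1.08, 0.773, 0.955 and 1.01, at percentiles 29.6, 10.3, 22.5 and 26.1. The first cluster above the median score of its list began at 23031239 in replicate 1, with a score of 1.98. In replicate 2 it began at 23031235, with a score of 2.48. These starts were 4 bp apart and lay 22.7 kb from the block start. A gap shared by both replicates, 3.18 kb long, preceded them. The pooled list differed in that its edge cluster, with a score of 0.956, was already above the median score, at percentile 56.7. Its next cluster scored 0.710, at percentile 47.9.

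Mean scores were lower over the first 300 kb than in the 200 kb that followed, although coverage was already high. The mean score of the covered bases was 1.60, 1.58 and 1.72 in the initial windows of 100 kb, up to 300 kb, in replicate 1, and 2.15 and 2.48 in the next ones. In replicate 2 it was 1.73, 1.67 and 1.94, and then 2.41 and 2.67. Coverage by clusters at or above the median score of the list was 58.4%, 62.8% and 73.7% in these initial windows in replicate 1, and 97.0% in the window from 400 to 500 kb. In replicate 2 it was 35.0%, 23.2% and 54.4%, and then 82.0% between 400 and 500 kb. That window had the highest mean score of all in both replicates. Between 300 and 1500 kb, this coverage was lowest at 69.4% in replicate 1 (1200 to 1300 kb) and 63.5% in replicate 2 (500 to 600 kb). The 73.7% of replicate 1 thus lay within the range further in. All clusters together covered 81.6%, 73.5% and 84.7% of these first windows in replicate 1, and 79.6%, 70.9% and 79.5% in replicate 2. Low scores were not confined to the border side. In the last 35.0 kb before the proximal end, the mean score of the covered bases was 1.74 in replicate 1 and 1.85 in replicate 2. Clusters at or above the median score covered 97.8% of that stretch in replicate 1 and 48.2% in replicate 2. With clusters at or above the median score alone, the fitted start lay 20.0 kb further in for replicate 1 and 185 kb further in for replicate 2. The border width was then 40.0 kb in replicate 1 and 285 kb in replicate 2, so these values depend on the library. For the pooled list treated in the same way, the start stayed at 23008558 and the width was 50.0 kb. The median scores over the whole lists were 1.21 in replicate 1 and 1.80 in replicate 2.

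**Figure D3:**
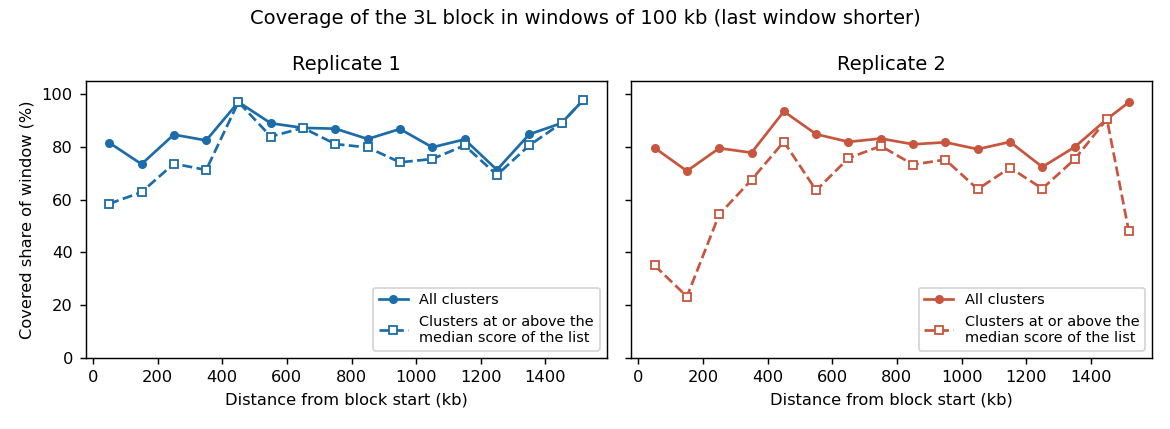
Covered share of the block (percent) in windows of 100 kb against distance from the block start (kb), for all clusters (filled circles) and for clusters at or above the median score of the list (open squares), in replicate 1 and replicate 2. The solid lines lie between 70.9% and 97.8% throughout, while the dashed line starts at 58.4% in replicate 1 and 35.0% in replicate 2; the last window is only 35.0 kb long.

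Along the rest of the block, mean coverage in stretches of about 250 kb ranged from 76.1% to 87.7%. Between 250 and 500 kb from the start, coverage was 85.4% ± 2.96, between 500 and 750 kb it was 85.2% ± 2.33, and between 750 and 1000 kb it was 84.0% ± 3.40 (SD, n = 2). It was lower between 1000 and 1250 kb, with 76.1% ± 0.206, and higher in the last 285 kb before the proximal end of the sequence, with 87.7% ± 0.859 (SD, n = 2). The first 250 kb had 78.7% ± 2.12 (SD, n = 2). The lowest running mean of 10 tiles inside the block, 41.5% in replicate 1 and 42.6% in replicate 2, lay from 24188558 to 24238557. It was still above the highest running mean of the flank, which was 17.0% in replicate 1 and 15.6% in replicate 2.

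The block was built of long clusters separated by short gaps. It held 102 clusters in replicate 1, with a median length of 9.09 kb and lengths from 1.36 to 73.6 kb. In replicate 2 it held 119, with a median of 6.61 kb and lengths from 1.34 to 65.9 kb. The lists divided part of the same sequence differently, and they also differed in extent. Of the bases of the block, 3.75% were covered in replicate 1 only and 0.993% in replicate 2 only. Of the replicate 1 clusters of the block, 80 touched 1 replicate 2 cluster, 19 touched several and 3 touched none. Of the replicate 2 clusters, 109 touched 1 replicate 1 cluster, 8 touched several and 2 touched none.

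The longest pooled clusters of the block that both replicates touched were spread over its length. After the cluster from 23417891 to 23491661, which spanned 73.8 kb, came one of 54.0 kb from 24136008 to 24190017. The next were 52.1 kb from 23883895 to 23935988, 49.1 kb from 24029683 to 24078802 and 45.0 kb from 23617872 to 23662870. Replicate clusters covered between 95.0% and 99.8% of each of these 5 regions. Their pooled scores lay between 2.25 and 2.64, at percentiles 80.5 to 87.9 of the pooled list. The longest stretch of the block without a shared gap was 92.0 kb, from 23417991 to 23509963, covered over 98.1% in replicate 1 and 94.7% in replicate 2.

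Gaps within the block recurred at nearly the same places in both replicates. A gap was a run of at least 1 kb without a cluster. Replicate 1 had 61 gaps, which took up 14.6% of the block, and replicate 2 had 76, which took up 17.4%. Sequence free of clusters in both replicates formed 60 gaps, with a total of 211 kb or 13.7% of the block. Only 2 gaps of replicate 1 met no shared gap, the longer of them 1.32 kb. In replicate 2 there were 17, the longest 4.09 kb. Where a shared gap lay within 1 gap of each replicate and no other shared gap did, 112 edges could be compared. The replicates placed an edge a median of 99.5 bp apart, 92 of the 112 edges within 500 bp and 8 more than 1 kb apart.

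Most gaps were short, and a few long ones held much of the unmarked sequence. The shared gaps had a median length of 2.97 kb, 19 were shorter than 2 kb and 13 were 5 kb or longer. The 10 longest held 36.6% of the shared gap length. Neighbouring shared gaps were separated by a median of 14.3 kb. By distance from the block start, the first 250 kb held 14 shared gaps with 43.8 kb in all. The stretches of 250 kb that followed held 9, 8 and 9, with 28.0, 27.4 and 32.1 kb. The stretch from 1000 to 1250 kb held 13, with 52.7 kb, and the last 285 kb held 8, with 26.7 kb.

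**Figure D4:**
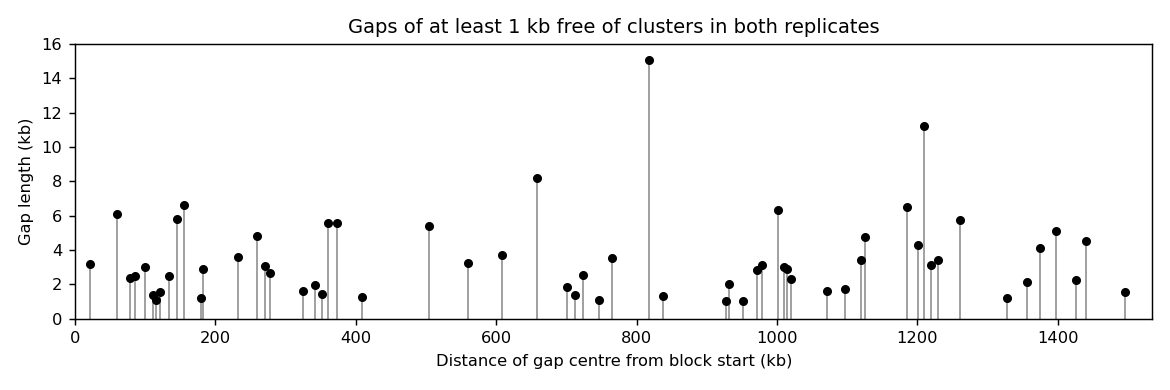
Length (kb) of each of the 60 gaps of at least 1 kb that are free of clusters in both replicates, against the distance of its centre from the block start (kb). Only 2 gaps exceed 10 kb, the longest with 15.1 kb near the middle of the block, and the others lie between 1.04 and 8.18 kb.

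The longest gap lay near the middle of the block, from 23818710 to 23833796, and was 15.1 kb long. In replicate 1 the gap had exactly these limits, and in replicate 2 it ran from 23818544 to 23833949. The clusters that bordered it scored 2.34 and 1.77 in replicate 1, at percentiles 75.4 and 62.1 of its list. In replicate 2 they scored 2.56 and 2.02, at percentiles 69.9 and 54.7. The pooled list covered 6.87% of it.

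The next longest gap, 11.2 kb from 24212989 to 24224212, lay within the lowest running mean of the block. Here the replicates differed: the gap was 17.4 kb long in replicate 1 and began at 24206789, while a replicate 2 cluster ended just before 24212989. The cluster after this gap scored only 0.468 in replicate 1 and 0.655 in replicate 2, and the pooled list covered 35.4% of it. The 50 kb of the lowest running mean held 5 shared gaps with 27.2 kb in all. One of them, from 24190007 to 24196520, was 6.51 kb long, and the pooled list covered 0.522% of it.

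The gap from 23662138 to 23670318, 8.18 kb long, was the one among the 10 longest that the pooled list filled most. Pooled clusters covered 71.4% of it, although neither replicate list had a cluster there. The remaining 6 of the 10 longest lay at 23159690 to 23166332, 24006512 to 24012849, 23065708 to 23071828, 23151154 to 23156974, 24266151 to 24271875 and 23366387 to 23371941. They were 6.64, 6.34, 6.12, 5.82, 5.72 and 5.55 kb long, and pooled clusters covered between 0.55% and 19.2% of each. Over all 60 shared gaps the pooled list covered 23.3% of the length, it filled 1 gap wholly, and 13 were filled over more than 50%. Which bases of these gaps are unknown or cannot be placed by reads was not assessed here.

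Whole tiles without cover were rare in the block. In both replicates 5 tiles were empty. They were the tile beginning at 23663558, the tiles beginning at 23823558 and 23828558 in the longest gap, and those beginning at 24213558 and 24218558 in the 11.2 kb gap. The pooled list left only the pair in the longest gap empty. Replicate 1 had 1 further empty tile and replicate 2 had 2.

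In the replicate lists the flank held few, short and mostly low-scoring clusters. Replicate 1 had 10 with a median length of 1.95 kb and replicate 2 had 6 with a median of 2.61 kb. Each replicate 2 cluster of the flank touched a cluster of replicate 1, and 7 of the 10 replicate 1 clusters touched one of replicate 2. The longest, from 22754175 to 22760020 in the pooled list, lay 251 kb distal of the block start. It scored 2.32 in replicate 1 and 2.47 in replicate 2, at percentiles 74.97 and 66.6 of those lists, and was the only flank cluster at or above the median score in either replicate. The others named by length spanned 4.60 kb from 22711322, 2.86 kb from 22565647, 2.76 kb from 22678839 and 2.195 kb from 22936515, with pooled scores between 0.626 and 0.795. Free stretches between flank clusters reached 110 kb in replicate 1 and 155 kb in replicate 2.

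The replicates called the tiles alike nearly everywhere. Both had the same call in 386 of the 400 tiles, of which 260 were marked in both. A further 8 were marked in replicate 1 only and 6 in replicate 2 only. The tile shares differed by a mean of 3.63 percentage points over all tiles and 4.23 points in the block, and by more than 20 points in 22 tiles. Where block tiles differed, replicate 1 was the higher in 109 and replicate 2 in 39. Across the 307 block tiles Pearson's r was 0.938 and Spearman's rho 0.932. Tiles are neighbours on 1 sequence within the same 2 libraries and are not replicates. The base pair Jaccard index, shared covered length over combined covered length, was 0.944 in the block and 0.678 in the flank.

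The 5 tiles that differed most all had more cover in replicate 1. The tile from 23488558 to 23493557 was covered over 86.0% in replicate 1 and 35.4% in replicate 2, and that from 24383558 to 24388557 over 55.9% and 11.7%. The tile from 23023558 to 23028557, in the low-scoring outer part of the block, had 89.96% and 47.1%. The tiles beginning at 23318558 and 23773558 had 80.1% and 38.0%, and 66.1% and 26.7%.

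The same fit on the proximal 2 Mb of the other arms put the 3L border beside those of 2L and 2R. The fitted start lay 845 kb from the proximal end on 2L in replicate 1 and 830 kb in replicate 2. On 2R it lay at 1560 and 1535 kb, against 1535 kb on 3L in both. The border width was 100 and 55.0 kb on 2L and 80 and 70 kb on 2R, against 45.0 kb in both replicates on 3L. From the 10 tiles distal to the 10 tiles proximal of the fitted start, coverage rose by 84.0 ± 0.645 percentage points on 3L, by 57.3 ± 8.24 on 2L and by 56.4 ± 9.22 on 2R (SD, n = 2). The replicate values of 3L lay apart from those of 2L and of 2R in both measures (2-sided exact permutation test, p = 0.333 for each, the smallest that 2 against 2 allows). This design therefore cannot reach 0.05. Both arms were measured in the same 2 libraries, and the test did not pair the values by library, so its p-values are descriptive only. The levels inside the fitted blocks of 3L and 2R overlapped between replicates, with 82.9% ± 1.95 against 83.9% ± 1.38 (SD, n = 2; 2-sided exact permutation p = 0.667). Within each library 2R was slightly higher, with 84.9% against 84.3% in replicate 1 and 83.0% against 81.6% in replicate 2. The values on 2L were 78.3% ± 2.68. On X and 3R a single step left most of the variation between tiles, accounting for 5.29% and 7.43% of the variance as a mean of the replicates. The share was much alike on the other arms, with 65.6% on 3L, 65.3% on 2L and 64.8% on 2R. The fitted positions on X and 3R are not read as borders. How far each block reaches depends on where the arm sequence ends.

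**Figure D5:**
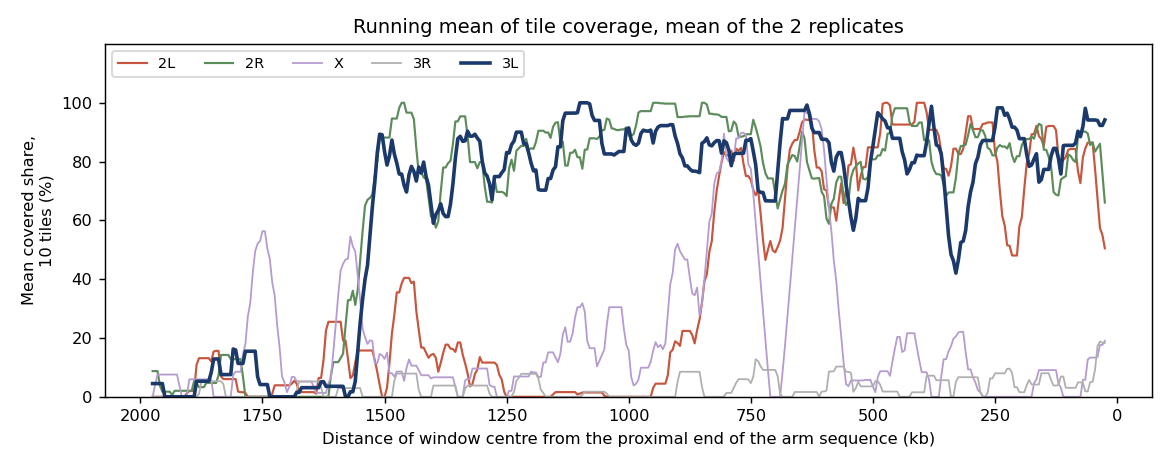
Running mean of the covered share over 10 tiles (percent, mean of the 2 replicates) against the distance of the window's centre from the proximal end of each arm sequence (kb), for 2L, 2R, 3L, 3R and X. The 3L line (thick) rises in a single climb near 1535 kb, 2R rises near 1535 to 1560 kb, and 2L rises near 830 to 845 kb.

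The block was also set beside 3LHet, the separately assembled heterochromatin of the same arm, and the replicate values of their cover overlapped. Coverage was 82.9% ± 1.95 in the block and 82.1% ± 1.16 in 3LHet (SD, n = 2; 2-sided exact permutation p = 0.667). Within each library it was slightly higher in the block, with 84.3% against 82.9% in replicate 1 and 81.6% against 81.3% in replicate 2. The block had 72.0 ± 7.83 clusters per Mb and 3LHet 59.1 ± 5.53 (SD, n = 2; 2-sided exact permutation p = 0.333, the smallest possible). Median cluster lengths were 7.85 ± 1.76 kb and 9.04 ± 1.33 kb (SD, n = 2; exact permutation p = 0.667). Within each library, too, the block had more clusters per Mb, 66.4 against 55.2 in replicate 1 and 77.5 against 63.0 in replicate 2. Its median cluster was shorter in both, 9.09 against 9.97 kb in replicate 1 and 6.61 against 8.10 kb in replicate 2. Shared gaps numbered 39.1 per Mb in the block and 33.7 per Mb in 3LHet. The longest in 3LHet, 47.0 kb, exceeded the 15.1 kb of the block. Over the 28 exact permutation comparisons with other arms and 3LHet, none of them paired by library, the smallest adjusted p (Benjamini-Hochberg) was 0.491.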

How the data were processed

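Cluster lists of 2 H3K9me2 ChIP libraries and of their replicate set were used. Bowtie 0.12.7 is named in the submitters' processing notes, and the build is FlyBase release 5 per the file headers. For the caller, its threshold and the combination of replicates, the method was not given in the sources used. Each cluster has a score deposited by the authors, whose scale is not stated. Clusters past a sequence end were trimmed there, overlapping ones were united, and the covered share of each 5 kb tile was computed with Python 3.11.15, numpy 2.4.6 and scipy 1.17.1. The common block start came from the mean profile of the replicates. The code was run on simulated profiles, where 20 of 20 starts were found to within 1 tile and 831 of 831 gaps were recovered. The simulated borders lay on tile edges, and gaps were sought in the same profiles from which they had been cut. Those runs therefore check the code only and say nothing of the certainty of the reported start or gaps. Named were the tiles within 50 kb of the block start, the 10 longest shared gaps, the 5 longest pooled clusters of block and flank that both replicates touch, and the 5 most discordant tiles. Other pooled clusters are named where a count called for it, after their values were seen. The region, measures and lists were chosen with earlier results of these data known. The gene table is of release 6, so genes and base composition were not analysed here. Alternatives covered tile size, score, joining, list, replicate, fit rule, window and thresholds.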

Additional observations from a re-analysis of the deposited data

How the results depend on the processing

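Of 49 recomputed values, 29 stayed within the replicate SD, within 1.5 times for the count of gaps, or within the Wilson interval for tile agreement. The start at 23008558 was the same with clusters joined, the pooled list, absolute deviations or 3 Mb searched. It was 23006558 with 1 kb tiles, 23003558 with 10 kb tiles and 23028558 with the upper 50% by score. It was 24198558 where an outward run of 10-tile means had to stay at or over 50%, since that run ends at the lowest running mean of the block. It was 23193558 in the proximal 1.5 Mb, which does not reach the start, and there the replicates alone gave 23168558 and 24453558, so that value depends on the library. The border width was 38.5 kb with 1 kb tiles, 50.0 kb with 10 kb tiles, 32.5 kb from 20% to 80% of the step, and 162.5 kb (mean of 40.0 and 285 kb) with the upper 50% by score. Covered shares of block and flank were 72.0% and 1.22% for clusters in the upper 50%, and 88.7% and 6.93% for pooled clusters. Marked tiles were 66.75% of tiles as reported, 65.1% with 1 kb tiles, 71.0% with 10 kb tiles, 56.8% among upper 50% clusters, 71.5% in the pooled list, and 75.9% and 55.0% with thresholds of 25% and 75%. Tile agreement fell from 96.5% to 87.5% with the upper 50% by score. Shared gaps numbered between 41 (at least 2 kb) and 73 (at least 0.5 kb) over the settings with both replicates, and single replicates had 61 and 76. Their length changed more than their number with the upper 50% by score, where 54 gaps took up 315 kb, against 60 gaps and 211 kb as reported. Apart from what each setting changes by construction, the cause was not tested. A mean of 2 replicates necessarily stays within their SD when either is dropped, so those values say nothing of stability. The depth of the libraries is unknown, and sequence where reads cannot be placed was not assessed. Between ChIP and input, no paired analysis was possible because the inputs have no list of their own. The comparisons with other arms and 3LHet have values from both ChIP libraries on each side, but they were not paired by library.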

Other observations

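The pooled list held clusters that neither replicate list touched, 4 in the flank and 15 in the block, and 3 and 7 of these were shorter than 1301 bp, the shortest cluster in either replicate list. Of these 19, 2 carried the same score, 3.77 (percentile 99.4 among pooled clusters), and the same length of 1001 bp, which is the shortest in that list. They lay from 22803424 to 22804424 in the flank, 205 kb distal of the block start, and from 23819320 to 23820320 inside the longest gap. In the whole pooled list 11 clusters had exactly this score, and 8 of them were 1001 bp long. The highest score among the pooled clusters that no replicate touched was 4.18, from 23615591 to 23616979. Both replicates touched 86 of the 104 pooled clusters of the block and 6 of the 13 of the flank. These clusters were examined after their values were seen, and what sets the shared score was not tested.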
